A study of Rattus norvegicus with 64 samples.

Results

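The 10 genes described here are Sec14l5, Slc8a2, Epha7, Kalrn, Camk1g, Adcy1, Abl2, Hmbox1, Cers6 and Clstn2, of 32552 gene rows in the count tables. They were proposed as neuronal genes that lead the rise under doxorubicin, and each was chosen by its log2 change and p-value under doxorubicin in 1 brain region of 1 genotype, where it stood among the genes of clearest increase. The study measured RNA from the hippocampus and the cortex of 32 rats, whose labels give the genotype ApoE3 or ApoE4, named for isoforms of the lipid carrier apolipoprotein E. Doxorubicin, an anthracycline chemotherapy drug that poisons topoisomerase II, was given at 2 mg/kg a week for 4 weeks from 5 weeks of age, and the brains were taken 5 to 6 weeks after the last dose. The control rats received phosphate-buffered saline (PBS). The 8 groups were doxorubicin and PBS rats in ApoE3 hippocampus, ApoE4 hippocampus, ApoE3 cortex and ApoE4 cortex, with 8 libraries each from 4 males and 4 females. The labels say no more of the alleles or of how the lines were made. Markers of dentate granule neurons, which the cortex lacks, summed to 135 to 258 CPM in the hippocampal and 17.7 to 26.2 CPM in the cortical libraries. Each rat gave a hippocampal and a cortical library, so the 2 regions of a genotype share their rats, while the 4 comparisons of doxorubicin with PBS share no library.

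Several of the genes belong to signalling at the synapse. Calcium that enters a neuron through channels activates calmodulin, which in turn stimulates kinases of the CaMK family and calcium-sensitive adenylyl cyclases, and the calcium is pumped or exchanged out again. Adhesion molecules such as Eph receptors and calsyntenins and regulators of the actin cytoskeleton shape the dendrites and spines on which synapses form.

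Totals ran from 10836181 to 20397553 counts per library, and the 10 genes had between 139 counts (Sec14l5, cortex) and 10871 counts (Kalrn, cortex) in a library. Levels are given as CPM, read counts scaled to a common library total. For the 10 genes this follows scaling of the libraries, while marker levels use the library total alone. A log2 change is doxorubicin minus PBS. In bulk tissue, a change in the share of a cell type and a change of RNA per cell cannot be told apart. Rat numbers ran in blocks by genotype, sex and treatment, so a batch that follows these blocks cannot be told apart from the treatment. Earlier results of these data named 4 libraries as standing apart (hippocampus of doxorubicin rats 10 and 31, cortex of doxorubicin rat 72 and cortex of PBS rat 58), and the results that change without them are given both ways.

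The question asked of each gene was whether the difference seen where it was chosen is also found in the other region and genotype. In the counts of this and the next 2 paragraphs, higher and lower refer to the sign of the fitted log2 change, unless said otherwise. Outside the comparison that chose it, the level under doxorubicin was higher in 24 of 30 pairs of gene and comparison, with a median log2 change of 0.07, against medians between -0.01 and 0.00 over all genes tested in the 4 comparisons. Of these 30 pairs, 4 had an unadjusted p under 0.05 with a higher level, 0 had one with a lower level, and 0 passed after adjustment over all genes by edgeR's quasi-likelihood test. The 4 were Adcy1 in ApoE3 hippocampus and ApoE4 cortex, and Epha7 and Kalrn in ApoE4 cortex. The count of 0 lower pairs depended on the settings, through Epha7 in ApoE4 hippocampus, which was lower with an unadjusted p of 0.0517 by edgeR. Its unadjusted p was 0.0475 by DESeq2, 0.0477 with library totals only, 0.0484 without a filter and 0.0183 in 1 fit of the region. It was 0.0608 with RLE factors and 0.0817 without a sex term. Without the libraries that stood apart it was 0.136, with a log2 change of -0.17. Leaving out 1 library at a time gave an unadjusted p under 0.05 for Epha7 there in 5 of 16 fits. Leaving out 1 library turned the sign of Sec14l5, Slc8a2 and Camk1g in ApoE3 cortex, Cers6 in ApoE3 hippocampus, and Slc8a2, Hmbox1 and Abl2 in ApoE4 hippocampus, all with log2 changes between -0.01 and 0.04 with all libraries. Without the 4 libraries that stood apart, 23 pairs were higher and 5 had an unadjusted p under 0.05, the added one being Clstn2 in ApoE3 cortex. Leaving out the ApoE4 cortex of PBS rat 1, of PBS rat 24 or of doxorubicin rat 32 left 2 pairs under 0.05.

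The background is needed to read these counts. In all 4 comparisons 0% of genes passed the adjusted threshold of 0.05 by edgeR in either direction, and 1530 genes in ApoE3 hippocampus, 1098 in ApoE4 hippocampus, 1366 in ApoE3 cortex and 1308 in ApoE4 cortex had an unadjusted p under 0.05. DESeq2 called 160, 1, 77 and 35 genes in the same order of comparisons. Among all genes, 50.7% were higher under doxorubicin in ApoE3 hippocampus, 47% in ApoE4 hippocampus, 49.9% in ApoE3 cortex and 49.8% in ApoE4 cortex. A higher level with an unadjusted p under 0.05 was found for 4.38%, 3.81%, 5.43% and 4.95% of genes in that order, a lower one for 5.89%, 3.57%, 3.81% and 3.86%, and either for 10.3%, 7.38%, 9.25% and 8.82%. All 8 doxorubicin libraries lay above the PBS median for 2.96%, 2.86%, 3.07% and 3.87% of genes. Groups that did not overlap were rare: 0.0134%, 0.00672%, 0.0203% and 0.0337% of genes were higher in this way under doxorubicin, and 0.00671%, 0.00672%, 0.0203% and 0% were lower. Of the 10 genes, Slc8a2 was without overlap in ApoE3 hippocampus, where it was chosen, so nothing is read from that, and none was in any other comparison.

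By comparison, 5 of the 6 genes not chosen in ApoE3 hippocampus were higher there, with 1 under 0.05 and a median log2 change of 0.12. In ApoE4 hippocampus 5 of 9 were higher, with 0 under 0.05 and a median of 0.01, which is close to the background. All 7 genes not chosen in ApoE3 cortex were higher there, with 0 under 0.05 and a median of 0.06, and without doxorubicin rat 72 and PBS rat 58 there were 6 of 7 higher and 1 under 0.05. By group median, however, Slc8a2 (437 CPM under doxorubicin, 447 CPM under PBS) and Camk1g (37.9 and 38.8 CPM) were lower in ApoE3 cortex. So was Slc8a2 in ApoE4 hippocampus (407 and 419 CPM). In ApoE4 cortex 7 of 8 were higher, with 3 under 0.05 and a median of 0.09. The count was the same for the other region of the same rats, for the same region of the other genotype, and for the other region of the other genotype, with 8 of 10 higher in each and median log2 changes of 0.06, 0.08 and 0.06. In the comparisons that chose the genes the log2 changes ran from 0.16 to 0.38 with a median of 0.30, which is fixed by the choice.

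**Figure D1:**
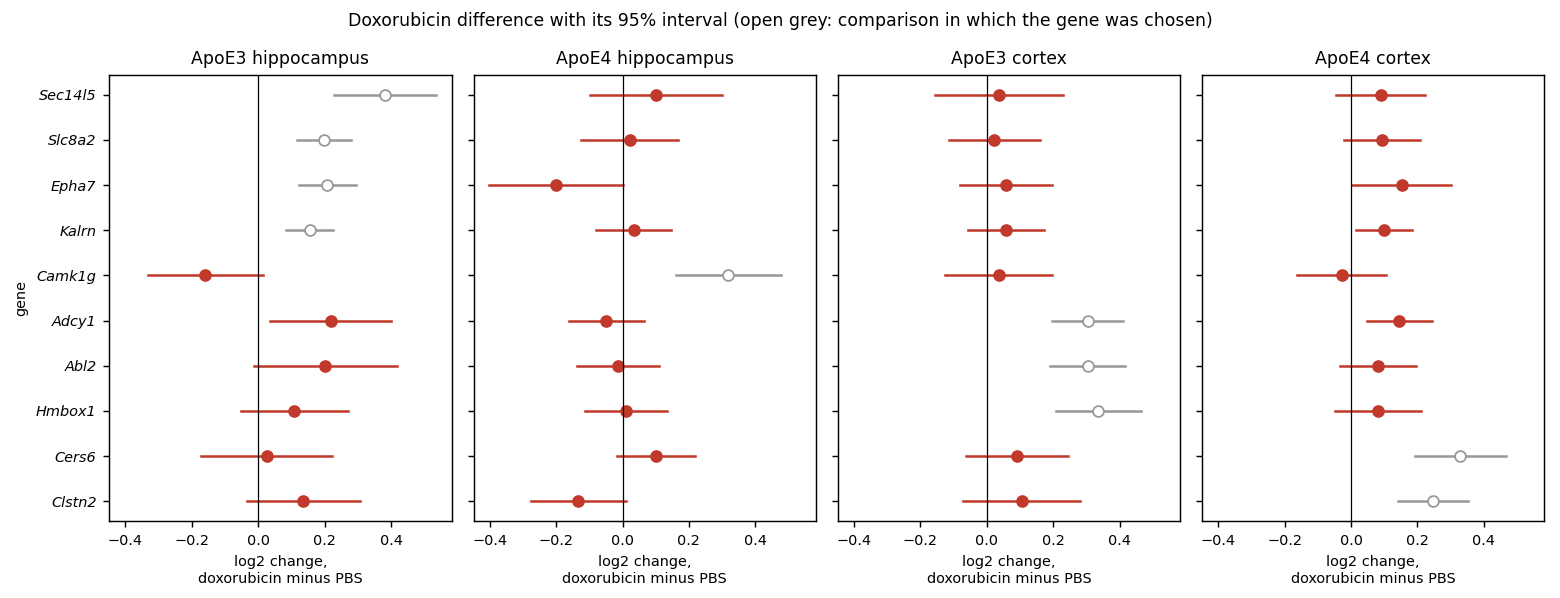
Log2 change of each gene, doxorubicin minus PBS (x axis), with its 95% interval, in the 4 comparisons; open grey points mark the comparison in which the gene was chosen and are a description only. Outside these, 24 of 30 points lie above 0, and the points below 0 are Epha7, Adcy1, Abl2 and Clstn2 in ApoE4 hippocampus and Camk1g in ApoE3 hippocampus and ApoE4 cortex.

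The values that chose the genes were the p-values and signs within 1 comparison. In ApoE3 hippocampus, Sec14l5, Slc8a2 and Epha7 ranked 1, 2 and 3 and Kalrn 6 among the named genes of smallest p with a higher level. Pcdh1 (log2 change 0.17) and Nr3c2 (0.22) ranked 4 and 5 and Ptpn3 (0.21) ranked 7, and none of these is among the 10. Camk1g ranked 3 in ApoE4 hippocampus, behind Kcnf1 (0.64) and Nipal3 (0.23). Adcy1, Abl2 and Hmbox1 ranked 1, 2 and 3 in ApoE3 cortex, ahead of Kmt2a (0.25), and Cers6 and Clstn2 ranked 1 and 2 in ApoE4 cortex, ahead of Ciart (0.53). The authors' deposited table gives adjusted p of 0.00299 for Slc8a2, 0.00331 for Kalrn, 0.00457 for Epha7, 0.00548 for Sec14l5, 0.0270 for Abl2 and 0.0402 for Clstn2 where they were chosen. In the authors' deposited table Hmbox1 has 0.115, Camk1g 0.145 and Adcy1 0.252, and Cers6 has no adjusted p there.

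Promoter sequences were available for 9 of the 10 genes from RefSeq (build GRCr8, 250 bases before to 50 after the gene start), and Hmbox1 had no entry. The promoters of Adcy1 and Abl2 are shown because the 2 genes were chosen together in ApoE3 cortex and varied together, and that of Clstn2 because it is the only one with a cyclic AMP response element. Each is printed 5′ to 3′ on the gene's strand, with motif matches in capitals.
Adcy1 (chr14:86124869-86125168, plus strand): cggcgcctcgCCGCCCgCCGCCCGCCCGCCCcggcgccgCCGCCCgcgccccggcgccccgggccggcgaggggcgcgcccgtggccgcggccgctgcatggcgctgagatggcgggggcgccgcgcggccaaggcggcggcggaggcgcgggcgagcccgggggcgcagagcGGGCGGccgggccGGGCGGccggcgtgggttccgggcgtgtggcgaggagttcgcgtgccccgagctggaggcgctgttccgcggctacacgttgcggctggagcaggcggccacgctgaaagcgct
Abl2 (chr13:71223699-71223998, plus strand): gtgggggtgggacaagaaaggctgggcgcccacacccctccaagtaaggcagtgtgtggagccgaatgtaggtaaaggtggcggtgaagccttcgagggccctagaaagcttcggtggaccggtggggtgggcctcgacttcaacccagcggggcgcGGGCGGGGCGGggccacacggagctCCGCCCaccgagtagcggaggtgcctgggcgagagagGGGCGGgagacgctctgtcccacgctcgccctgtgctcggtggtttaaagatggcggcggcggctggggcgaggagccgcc
Clstn2 (chr8:107516353-107516652, minus strand): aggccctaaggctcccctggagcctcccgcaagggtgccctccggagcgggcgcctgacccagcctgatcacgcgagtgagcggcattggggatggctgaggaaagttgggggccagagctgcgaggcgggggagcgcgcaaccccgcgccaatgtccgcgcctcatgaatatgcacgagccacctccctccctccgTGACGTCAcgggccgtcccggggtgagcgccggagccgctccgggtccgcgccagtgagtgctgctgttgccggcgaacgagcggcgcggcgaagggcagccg
In Adcy1 and Abl2 the capitals mark the GC box, searched as GGGCGG on both strands with overlaps counted, with 7 matches in Adcy1 and 4 in Abl2. Epha7 had 2 matches and Sec14l5 1, so 4 of 9 promoters held the GC box, against 33.1% of 33469 promoters of the same length. In Clstn2 the capitals mark the cyclic AMP response element TGACGTCA, which 1.83% of all promoters hold. The E-box CACGTG was found in Cers6 (6.42% of all promoters), and the TATA box TATAAA in none of the 9 (14.2% of all promoters). The GC content of the 9 promoters ran from 47.7% in Camk1g to 84.7% in Adcy1, with a median of 66.7%, against a median of 51.7% over all promoters. A match describes the letters only, and a promoter without one is not thereby shown to lack the factor. In Adcy1 the printed bases from atggcggggg to the end read as codons without a stop. Whether this part is coding sequence was not tested. The Adcy1 matches that read GGGCGG as printed lie in it, so they are not read as promoter features. The same holds for its share of the GC content.

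Adcy1 encodes adenylyl cyclase 1, a neuronal cyclase stimulated by calcium and calmodulin that makes cyclic AMP. It was chosen in ApoE3 cortex, where its level ran from 253 to 369 CPM with a median of 306 CPM in doxorubicin rats, and from 202 to 322 CPM with a median of 245 CPM in PBS rats. All 8 doxorubicin libraries were above the PBS median there, although the groups overlapped, and the log2 change was 0.30 (SE 0.05). In ApoE4 cortex Adcy1 ran from 400.2 to 417 CPM with a median of 410 CPM under doxorubicin, against 316 to 427 CPM with a median of 373 CPM under PBS. The 8 doxorubicin libraries lay within a narrow band above the PBS median, but 1 PBS library was higher than any of them. The log2 change was 0.14 (SE 0.05, 95% interval 0.05 to 0.24), with an unadjusted p of 0.00550 and an adjusted p of 0.380 by edgeR. In ApoE3 hippocampus the range was 355 to 447 CPM with a median of 394 CPM under doxorubicin, against 253 to 418 CPM with a median of 351 CPM under PBS. All 8 doxorubicin libraries again exceeded the PBS median, as did 2.96% of genes in ApoE3 hippocampus and 3.87% in ApoE4 cortex. The log2 change in ApoE3 hippocampus was 0.22 (SE 0.09), with an unadjusted p of 0.0219, an adjusted p of 0.379 by edgeR, and 0.0511 unadjusted without PBS rat 58. In ApoE4 hippocampus the medians were 395 CPM under doxorubicin and 420 CPM under PBS, with a log2 change of -0.05 (SE 0.05) and 2 of 8 doxorubicin libraries above the PBS median. The median of Adcy1 was higher under doxorubicin in both regions of ApoE3 rats and in the cortex of ApoE4 rats, and lower in ApoE4 hippocampus.

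Slc8a2 encodes the sodium-calcium exchanger NCX2, which carries calcium out of neurons. In ApoE3 hippocampus, where it was chosen, it ran from 469.4 to 551 CPM with a median of 496 CPM in doxorubicin rats and from 411 to 468.7 CPM with a median of 438 CPM in PBS rats. The groups did not overlap and the log2 change was 0.20 (SE 0.04), which describes the values that chose the gene. Elsewhere the groups overlapped widely. The log2 change was 0.02 (SE 0.07) in ApoE4 hippocampus, with medians of 407 CPM under doxorubicin and 419 CPM under PBS. It was 0.02 (SE 0.07) in ApoE3 cortex, with medians of 437 CPM under doxorubicin and 447 CPM under PBS, and 0.09 (SE 0.05, unadjusted p = 0.104 by edgeR) in ApoE4 cortex, with medians of 401 CPM and 367 CPM.

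Camk1g encodes CaMKI gamma, a calmodulin-dependent kinase of neurons. It was chosen in ApoE4 hippocampus, where it ran from 25.8 to 35.9 CPM with a median of 30.5 CPM in doxorubicin rats and from 21.5 to 29.2 CPM with a median of 23.9 CPM in PBS rats (log2 change 0.32, SE 0.07). In ApoE3 hippocampus the order was the other way round. There the level ran from 22.7 to 35.3 CPM with a median of 24.4 CPM under doxorubicin, against 25.8 to 32.3 CPM with a median of 28.6 CPM under PBS. Only 1 of 8 doxorubicin libraries exceeded the PBS median, that of rat 66, and the log2 change was -0.16 (SE 0.08, unadjusted p = 0.0693 by edgeR). Without rat 66 it was -0.23, with an unadjusted p of 0.00215 and an adjusted p of 0.207 by edgeR. The cortical log2 changes of Camk1g were 0.04 (SE 0.08) in ApoE3 and -0.03 (SE 0.06) in ApoE4 rats. Without the cortex of doxorubicin rat 72 and PBS rat 58, the ApoE3 value was -0.03. With all libraries, the log2 change of Camk1g was above 0 in 1 of its 3 other comparisons.

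Epha7 encodes a receptor of the Eph family, which binds ephrins on neighbouring cells and guides axons and dendrites. In ApoE3 hippocampus, where it was chosen, it ran from 124 to 142 CPM with a median of 139 CPM in doxorubicin rats and from 108 to 130 CPM with a median of 115 CPM in PBS rats (log2 change 0.21, SE 0.04). In ApoE4 cortex it ran from 57.3 to 78.7 CPM with a median of 69.1 CPM under doxorubicin, against 53.3 to 73.7 CPM with a median of 57.5 CPM under PBS. There 7 of 8 doxorubicin libraries exceeded the PBS median, and the log2 change was 0.15 (SE 0.07), with an unadjusted p of 0.0453 and an adjusted p of 0.552 by edgeR. Leaving out 1 library at a time kept the unadjusted p under 0.05 in 6 of 16 fits. In ApoE4 hippocampus the level was lower under doxorubicin, at 89.4 to 135 CPM with a median of 114 CPM, against 107 to 164 CPM with a median of 123 CPM under PBS. The log2 change there was -0.20 (SE 0.10, 95% interval -0.40 to 0.00, unadjusted p = 0.0517 by edgeR), with a difference of mean log2 CPM of -0.36 in males and -0.00 in females. In ApoE3 cortex the log2 change was 0.06 (SE 0.07).

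Clstn2 encodes calsyntenin 2, a cadherin-like protein of the postsynaptic membrane. In ApoE4 cortex, where it was chosen, it ran from 79.5 to 105 CPM with a median of 96.1 CPM in doxorubicin rats and from 71.3 to 86.2 CPM with a median of 79.3 CPM in PBS rats (log2 change 0.25, SE 0.05). In ApoE3 hippocampus all 8 doxorubicin libraries exceeded the PBS median, with medians of 109 CPM under doxorubicin and 102 CPM under PBS, but the log2 change of 0.14 (SE 0.08) had an unadjusted p of 0.112 by edgeR. In ApoE4 hippocampus the medians were 102 CPM under doxorubicin and 109 CPM under PBS (log2 change -0.13, SE 0.07, unadjusted p = 0.0668 by edgeR). In ApoE3 cortex the log2 change of 0.10 (SE 0.08) combined a difference of 0.39 in males and -0.19 in females, and the difference between the sexes was not tested. The log2 change was 0.16 (unadjusted p = 0.0431 by edgeR) without doxorubicin rat 72, and 0.19 (unadjusted p = 0.0163, adjusted p = 0.561) without PBS rat 58 as well.

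Kalrn encodes kalirin, a guanine nucleotide exchange factor of dendritic spines. In ApoE3 hippocampus, where it was chosen, it ran from 461 to 514 CPM with a median of 494 CPM in doxorubicin rats and from 414 to 472 CPM with a median of 445 CPM in PBS rats (log2 change 0.16, SE 0.03). In ApoE4 cortex it ran from 550.5 to 651 CPM with a median of 581 CPM under doxorubicin, against 488 to 590.4 CPM with a median of 556 CPM under PBS. The log2 change there was 0.10 (SE 0.04), with an unadjusted p of 0.0228 and an adjusted p of 0.486 by edgeR, and 6 of 8 doxorubicin libraries exceeded the PBS median. Without doxorubicin rat 32, whose level was the highest of the group, the unadjusted p was 0.0714, and without PBS rats 1 or 24 it was 0.0502 or 0.0614. In 1 fit of the region it was 0.0634. The log2 changes were 0.03 (SE 0.05) in ApoE4 hippocampus and 0.06 (SE 0.05) in ApoE3 cortex, with unadjusted p of 0.550 and 0.303 by edgeR.

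Abl2 encodes a non-receptor tyrosine kinase, also called Arg, that binds actin and takes part in the upkeep of dendrites. In ApoE3 cortex, where it was chosen, it ran from 26.5 to 32.3 CPM with a median of 30.5 CPM in doxorubicin rats and from 21.6 to 28.2 CPM with a median of 23.9 CPM in PBS rats (log2 change 0.30, SE 0.05). In ApoE3 hippocampus it ran from 28.3 to 39.8 CPM with a median of 37.7 CPM under doxorubicin, against 23.0 to 38.0 CPM with a median of 34.0 CPM under PBS. The log2 change was 0.20 (SE 0.10, unadjusted p = 0.0653 by edgeR), and 7 of 8 doxorubicin libraries exceeded the PBS median. In ApoE4 rats the log2 changes of Abl2 were -0.01 (SE 0.06) in hippocampus and 0.08 (SE 0.06) in cortex.

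Sec14l5 encodes a protein with the lipid-binding SEC14 domain. In ApoE3 hippocampus, where it was chosen, it ran from 13.8 to 18.5 CPM with a median of 16.0 CPM in doxorubicin rats and from 10.6 to 14.4 CPM with a median of 12.6 CPM in PBS rats. Its log2 change of 0.38 (SE 0.07) was the highest of the 10 genes where they were chosen. Elsewhere the log2 changes were 0.10 (SE 0.09) in ApoE4 hippocampus, 0.04 (SE 0.09) in ApoE3 cortex and 0.09 (SE 0.06) in ApoE4 cortex, with unadjusted p of 0.305, 0.697 and 0.181 by edgeR.

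Cers6 encodes ceramide synthase 6, which makes ceramides with palmitoyl chains. In ApoE4 cortex, where it was chosen, it ran from 18.7 to 21.9 CPM with a median of 19.9 CPM in doxorubicin rats and from 12.5 to 18.8 CPM with a median of 15.9 CPM in PBS rats (log2 change 0.33, SE 0.07). In ApoE4 hippocampus 7 of 8 doxorubicin libraries exceeded the PBS median (log2 change 0.10, SE 0.06, unadjusted p = 0.0907 by edgeR). In ApoE3 rats the log2 changes were 0.03 (SE 0.09) in hippocampus and 0.09 (SE 0.07) in cortex.

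Hmbox1 encodes a homeobox protein, also called HOT1, that binds telomeric DNA. In ApoE3 cortex, where it was chosen, it ran from 14.8 to 20.9 CPM with a median of 18.8 CPM in doxorubicin rats and from 11.5 to 18.0 CPM with a median of 14.6 CPM in PBS rats (log2 change 0.34, SE 0.06). The other log2 changes were 0.11 (SE 0.08) in ApoE3 hippocampus, 0.01 (SE 0.06) in ApoE4 hippocampus and 0.08 (SE 0.06) in ApoE4 cortex, with unadjusted p of 0.173, 0.864 and 0.212 by edgeR.

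**Figure D2:**
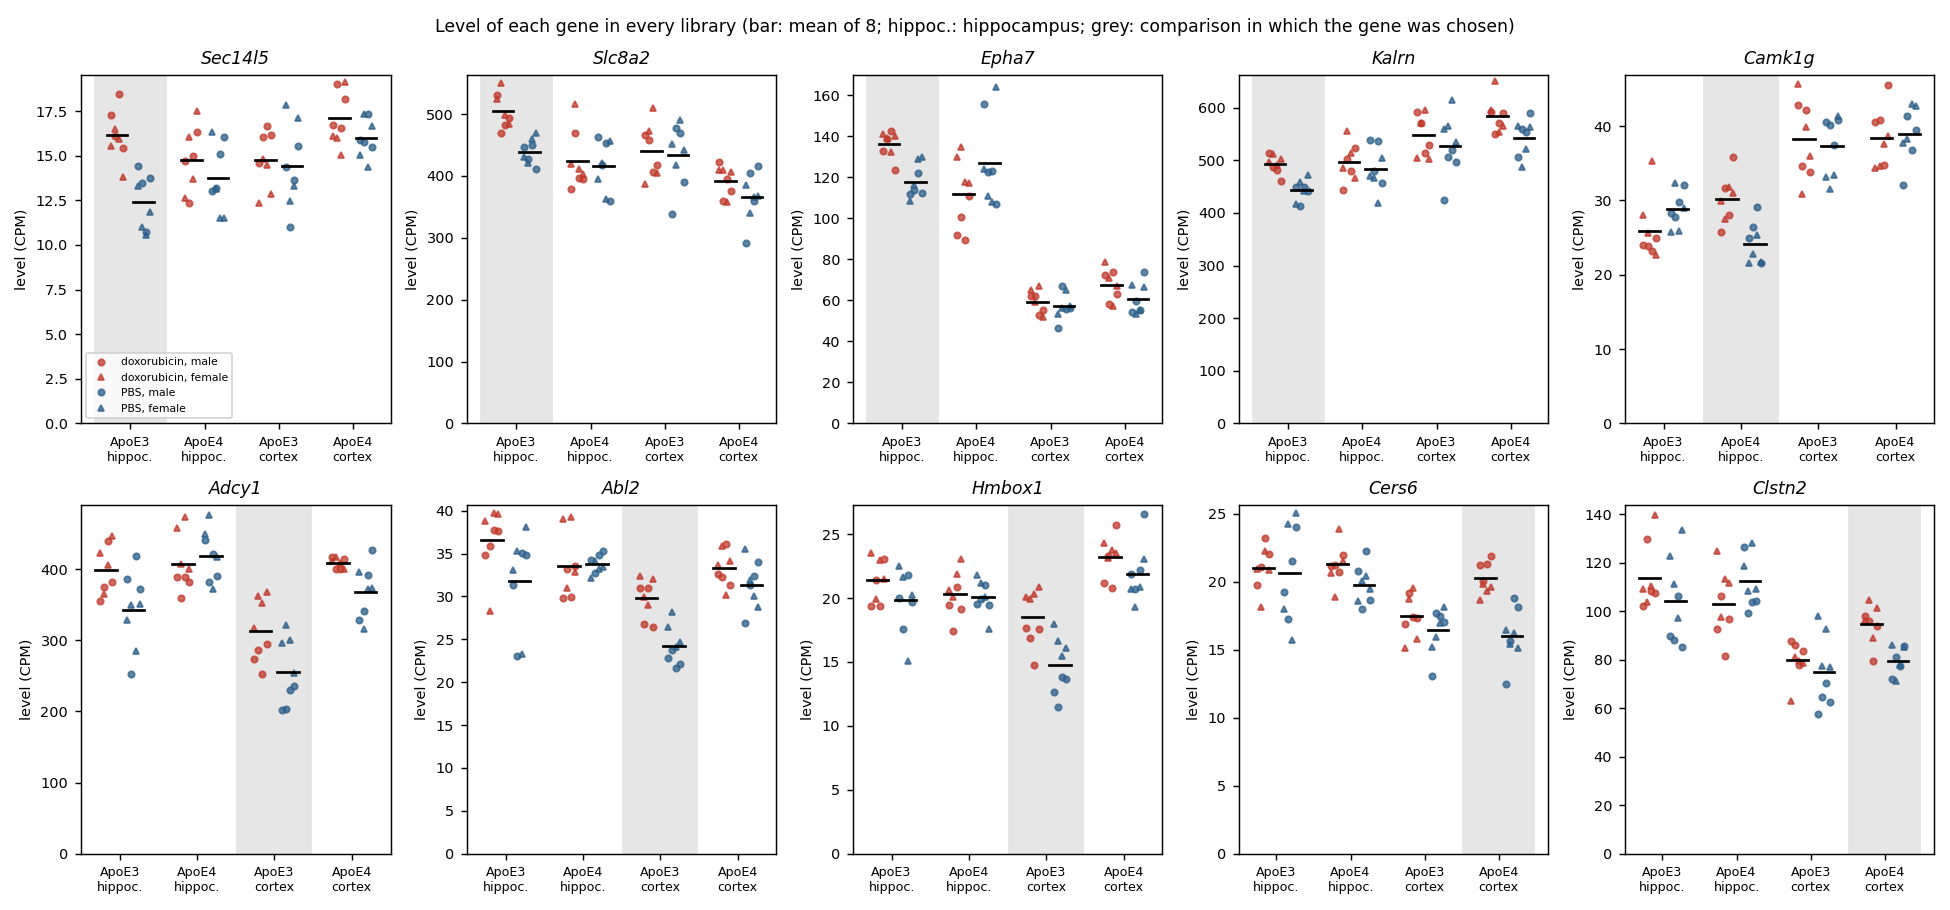
Level of each gene in CPM (y axis, from 0) in all 64 libraries, with doxorubicin to the left of PBS within each region and genotype, circles for males and triangles for females, bars for the mean of 8 libraries, and grey shading for the comparison in which the gene was chosen. For Adcy1, Abl2 and Hmbox1 the PBS group of ApoE3 cortex is the lowest of the 8 groups and its doxorubicin group the next lowest by median. The choice of these genes favours a low PBS group there.

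Set against the other groups, 7 of the 10 genes had the PBS group of the choosing comparison as the lowest of all 8 groups by median, and 2 genes, Slc8a2 and Epha7, had its doxorubicin group as the highest. The choice favours a low PBS group and a high doxorubicin group there. The share over all genes was not computed, so nothing is read from these counts. Adcy1, Abl2 and Hmbox1 shared 1 order at the low end. In ApoE3 cortex their doxorubicin group ranked 7 and their PBS group 8 of 8, so the level under doxorubicin was still below that of both ApoE4 cortex groups. The gap between ranks 7 and 8 is the difference that chose these 3 genes, at 0.30 log2 units for Adcy1, 0.30 for Abl2 and 0.33 for Hmbox1, and its size is fixed by the choice. Among the remaining neighbours in the order of these 3 genes, only ranks 1 and 2 of Hmbox1 (ApoE4 cortex and ApoE3 hippocampus, both under doxorubicin) differed by more than the pooled SD. Kalrn and Camk1g had their hippocampal groups below their cortical groups, while all 4 hippocampal groups of Epha7 and Clstn2 lay above all 4 cortical groups. For Epha7 this came with a step of 0.71 log2 units between the ApoE4 hippocampus and the ApoE4 cortex of doxorubicin rats.

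The regional difference in PBS rats was tested in the genotype that did not choose the gene, where 24.3% of genes were higher and 25.1% lower in hippocampus of ApoE3 rats and 24.8% were higher and 24.4% lower in ApoE4 rats by edgeR. Higher in hippocampus were Epha7 in ApoE4 rats (log2 difference, hippocampus minus cortex, 1.06, SE 0.10, adjusted p = 3.79e-08), Clstn2 in ApoE3 rats (0.47, SE 0.07, adjusted p = 1.14e-05), Cers6 in ApoE3 rats (0.31, SE 0.10, adjusted p = 0.0126) and Adcy1 in ApoE4 rats (0.18, SE 0.07, adjusted p = 0.0317). Lower in hippocampus were Camk1g in ApoE3 rats (-0.38, SE 0.06, adjusted p = 4.92e-05), Sec14l5 in ApoE4 rats (-0.23, SE 0.08, adjusted p = 0.0228) and Kalrn in ApoE4 rats (-0.18, SE 0.05, adjusted p = 0.00985). Slc8a2, Hmbox1 and Abl2 did not pass, with adjusted p of 0.0509, 0.0859 and 0.148. In all, 4 of the 10 genes passed as higher and 3 as lower in hippocampus.

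Between genotypes, 1.43% of genes were higher and 1.4% lower in ApoE4 than in ApoE3 hippocampus of PBS rats, and 9.21% were higher and 6.98% lower in cortex. In the region that did not choose the gene, Slc8a2 passed, being lower in ApoE4 than in ApoE3 cortex (log2 difference -0.25, SE 0.07, adjusted p = 0.0169 by edgeR). Adcy1 was 0.29 (SE 0.09) higher in ApoE4 than in ApoE3 hippocampus with an adjusted p of 0.0947 by edgeR, and the other 8 genes had adjusted p of at least 0.241.

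Whether the doxorubicin difference itself varied with genotype or region was tested where neither of the 2 effects had chosen the gene, and 0% of genes passed in any of these 4 tests by edgeR, with 1261 and 834 genes under an unadjusted p of 0.05 for genotype in hippocampus and cortex and 1235 and 554 for region in ApoE3 and ApoE4 rats, which are 8.18%, 5.45%, 8% and 3.59% of the genes. With the rat as a block, 9 genes passed for region in ApoE3 rats, where the 3 of the 10 genes that were tested, Camk1g, Cers6 and Clstn2, had adjusted p of 0.646, 0.933 and 0.972. DESeq2 called 6, 1, 123 and 0 genes in the same order. The ApoE4 effect minus the ApoE3 effect in hippocampus was -0.27 (SE 0.11) for Clstn2 and -0.26 (SE 0.11) for Adcy1, with unadjusted p of 0.0212 and 0.0239 and adjusted p of 0.555 and 0.558 by edgeR. The hippocampal effect minus the cortical effect in ApoE4 rats was -0.34 (SE 0.13) for Epha7 and -0.19 (SE 0.08) for Adcy1, with unadjusted p of 0.0144 and 0.0262 and adjusted p of 1.00 for both by edgeR. These 4 values were named for their unadjusted p under 0.05, and all use the same ApoE4 hippocampus libraries. All 4 values set ApoE4 hippocampus below its counterpart, and none passed after adjustment. Of the other genes tested for these terms, Cers6 (0.08) and Sec14l5 (0.02) went the other way, and the rest went the same way.

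**Figure D3:**
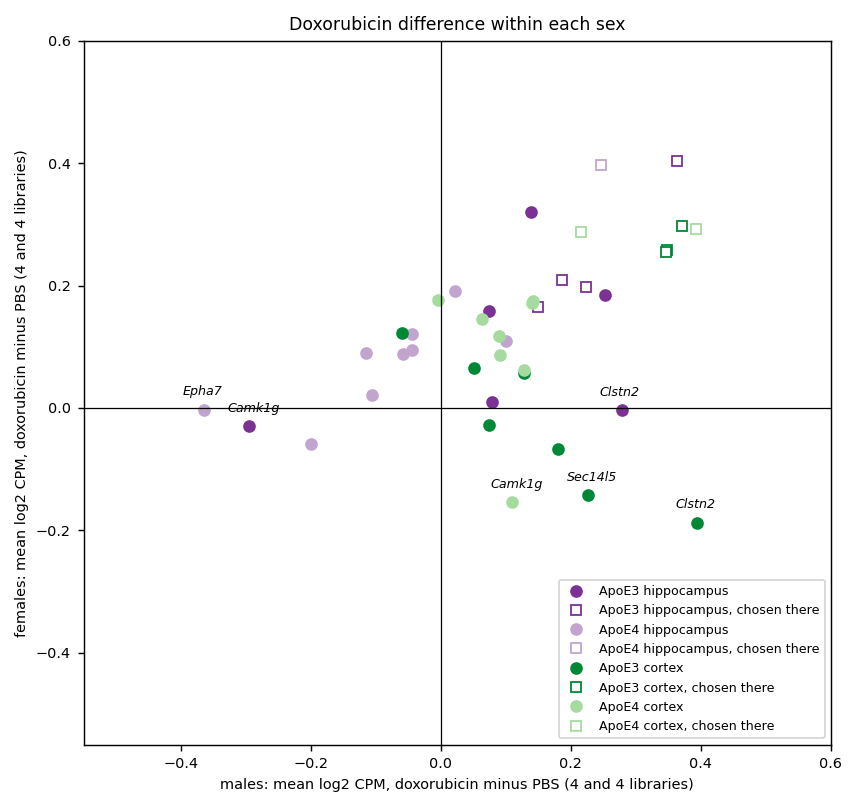
Difference of mean log2 CPM, doxorubicin minus PBS, in males (x axis) and females (y axis), 4 libraries against 4 in each; open squares mark the comparison in which a gene was chosen and filled circles the others. All 10 open squares lie above 0 on both axes, which the choice favours, so they are a description only. Of the 30 filled circles, 14 lie above 0 on both axes, and the share of all genes that do so was not computed.

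The 2 sexes gave the only split within a comparison. Outside the comparison that chose them, 14 of 30 pairs were higher in both sexes, 3 were lower in both and 13 differed in sign between the sexes. In ApoE4 cortex 6 of 8 were higher in both sexes and in ApoE3 hippocampus 4 of 6, while in ApoE4 hippocampus 2 of 9 and in ApoE3 cortex 2 of 7 were. The share of all genes higher in both sexes was not computed, so nothing is read from these counts. Adcy1 was 0.14 higher in males and 0.17 higher in females of ApoE4 cortex, and 0.14 and 0.32 higher in ApoE3 hippocampus. In ApoE3 cortex, Clstn2, Sec14l5 and Kalrn were higher in males (0.39, 0.23 and 0.18) and lower in females (-0.19, -0.14 and -0.07), as was Slc8a2 (0.07 and -0.03), while Camk1g was lower in males (-0.06) and higher in females (0.12). In ApoE4 hippocampus all 5 genes of mixed sign were lower in males and higher in females: Slc8a2 (-0.04 and 0.10), Kalrn (-0.05 and 0.12), Adcy1 (-0.11 and 0.02), Abl2 (-0.12 and 0.09) and Hmbox1 (-0.06 and 0.09). Differences between the sexes were not tested.

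How far the genes carry a neuronal signal was checked by their correlation with marker genes over the 64 libraries, after the mean of each group and sex was removed. These are descriptions, since the libraries are the same that chose the genes, come in pairs from 32 rats and share differences in dissection and depth. Slc8a2, Kalrn, Epha7 and Clstn2 were most like the neuron markers, with median Pearson r of 0.55, 0.50, 0.34 and 0.23 over 8 markers. In the same order r was positive for 7, 7, 7 and 8 of the 8, and it ran from -0.32 to 0.80 for Slc8a2. Among these markers Eno2 was very low, at 0.45 to 1.49 CPM over all libraries. Camk1g was most like markers of inhibitory neurons (0.23), and Cers6 of excitatory neurons (0.19). Adcy1 and Abl2 had no median r above 0.05 and 0.10 with any list. Sec14l5 went against the label: its median r was 0.41 with oligodendrocyte markers, positive for 6 of 6, and -0.14 with neuron markers, positive for 0 of 8. Hmbox1 had its highest median r with markers of oligodendrocyte precursors (0.26) and -0.03 with neuron markers.

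**Figure D4:**
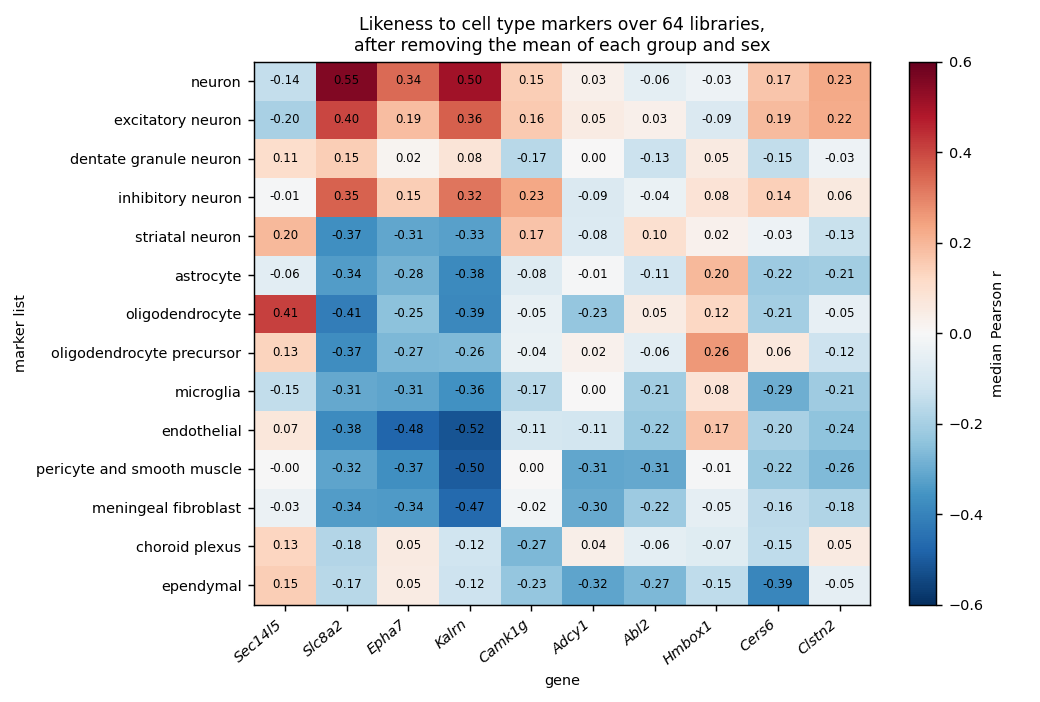
Median Pearson r of each gene (columns) with the markers of each cell type list (rows) over 64 libraries, after removing the mean of each group and sex; red is positive and blue negative. Slc8a2, Epha7 and Kalrn are red with the neuron list and blue with glial and vascular lists, whereas Sec14l5 is red with the oligodendrocyte list.

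The genes most like each of the 10 were sought over all genes after removing the mean of each region and genotype, so treatment and sex differences remained in these correlations. Sec14l5 was nearest to Abca2 (r = 0.58) and Myrf (r = 0.58), a lipid transporter of myelin-forming cells and the transcription factor of oligodendrocyte maturation. Slc8a2 was nearest to Dlg3 (0.83) and to Kalrn (0.81), and Kalrn to the sodium channel gene Scn8a (0.86) and Cnksr2 (0.83). Adcy1 and Hmbox1 were nearest to each other (0.78), followed by Stox2 for Adcy1 (0.77) and Huwe1 for Hmbox1 (0.75). Abl2 was nearest to Tnr (0.78) and Ank2 (0.77), Cers6 to Slc7a14 (0.76) and Tp53bp1 (0.72), Clstn2 to Ryr2 (0.85) and Pclo (0.81), Epha7 to Zbtb18 (0.68) and Slc8a2 (0.67), and Camk1g to Bhlhe40 (0.61) and Kcnf1 (0.59).

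Among the 10 themselves, after group and sex means were removed, Slc8a2 and Kalrn had r = 0.80, Epha7 and Kalrn 0.71 and Slc8a2 and Epha7 0.67, and all 3 were chosen in ApoE3 hippocampus. Adcy1 had r = 0.58 with Abl2, 0.54 with Cers6 and 0.53 with Hmbox1. Sec14l5 had negative r with Slc8a2, Epha7 and Kalrn (-0.16, -0.31 and -0.13), although the 4 were chosen in the same comparison.

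Other measures of the libraries differed between doxorubicin and PBS at an unadjusted exact permutation p under 0.05, none after adjustment over 68 tests, and their part in the results was not tested. In ApoE3 hippocampus the summed level of 5 meningeal fibroblast markers was 68.1 ± 27.6 CPM (range 47.6 to 126) under doxorubicin and 223 ± 157 CPM (range 64.3 to 448) under PBS (SD, n = 8 each; exact permutation p = 0.0110, adjusted p = 0.148 over 68 tests). The oligodendrocyte markers, which Sec14l5 followed, summed to 8752 ± 1304 CPM under doxorubicin and 7647 ± 800.0 CPM under PBS in that comparison (SD, n = 8 each; exact permutation p = 0.0564, adjusted p = 0.276). In ApoE4 cortex the 8 neuron markers summed to 7177 ± 206 CPM (range 6931 to 7596) under doxorubicin and 6875 ± 264 CPM (range 6363 to 7225) under PBS (SD, n = 8 each; exact permutation p = 0.0174, adjusted p = 0.148). Inhibitory neuron markers there summed to 715 CPM under doxorubicin and 651 CPM under PBS (exact permutation p = 0.0129), ependymal markers to 4.21 and 6.02 CPM (exact permutation p = 0.0131), and mitochondrial genes held 7.99% and 9.10% of counts (exact permutation p = 0.0172). In ApoE3 hippocampus, pericyte and smooth muscle markers summed to 154 CPM under doxorubicin and 270 CPM under PBS, microglial markers to 265 and 286 CPM and endothelial markers to 92.5 and 108 CPM (exact permutation p = 0.0127, 0.0141 and 0.0406). In ApoE4 hippocampus, spike-ins held 1.20% of counts under doxorubicin and 1.52% under PBS (exact permutation p = 0.0137), inhibitory neuron markers summed to 602 and 533 CPM (exact permutation p = 0.0385), and totals were also higher under doxorubicin (exact permutation p = 0.0264). In ApoE3 cortex the neuron markers summed to 7162 CPM under doxorubicin and 7181 CPM under PBS, and in ApoE3 hippocampus to 6742 and 6656 CPM. Of the 70 marker genes matched, 0 of the neuron, oligodendrocyte and meningeal markers were at 0 in any library.

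The families of the 10 genes were read out from lists of 10 families, of which the homeobox list had no other tested gene. Without the 10 genes, 0 of 137 tested family genes passed in either hippocampal comparison and 0 of 135 in either cortical comparison by edgeR. A higher level with an unadjusted p under 0.05 was found for 14.6% of them in ApoE3 hippocampus, 8.03% in ApoE4 hippocampus, 5.19% in ApoE3 cortex and 19.3% in ApoE4 cortex, beside the 4.38%, 3.81%, 5.43% and 4.95% of all genes given above. The counts were 20 higher and 10 lower in ApoE3 hippocampus, 11 and 4 in ApoE4 hippocampus, 7 and 7 in ApoE3 cortex, and 26 and 3 in ApoE4 cortex. Their median log2 changes were 0.02, 0.02, 0.02 and 0.04 in the same order. Which cell types express the listed genes was not examined. The summed neuron markers of ApoE4 cortex are given above, and their part in these counts was not tested.

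Of 23 other genes of cyclic AMP signalling, 3, 3, 3 and 4 were higher with an unadjusted p under 0.05 in that order of comparisons, with Adcy9, another adenylyl cyclase, at a log2 change of 0.21 (SE 0.05, unadjusted p = 0.000338, adjusted p = 0.170 by edgeR) in ApoE3 hippocampus. Of 13 other calcium exchangers and pumps 5, 1, 0 and 4 were higher in this sense, led in ApoE4 cortex by the exchanger gene Slc24a2 (0.23, SE 0.06, unadjusted p = 0.000980, adjusted p = 0.310 by edgeR). Of 11 other calmodulin-dependent kinases 2, 2, 0 and 4 were higher, with Camk2a at 0.16 (SE 0.06) in ApoE3 hippocampus and Camk4 at 0.20 (SE 0.06) in ApoE4 cortex. A lower level with an unadjusted p under 0.05 by edgeR was found for 1, 0, 1 and 1 of the cyclic AMP genes. It was found for 2, 1, 0 and 0 of the exchangers and pumps and for 2, 0, 0 and 0 of the kinases. Of 19 other Eph receptors and ephrins in hippocampus and 18 in cortex, 2, 3, 0 and 3 were higher and 3, 0, 1 and 0 lower. Among them Epha4 had 0.18 (SE 0.04) in ApoE3 hippocampus. The ceramide list of Cers6 had 0, 0, 1 and 1 of 17 other genes higher and 1, 1, 1 and 0 lower, and Cers4 was the gene of smallest p in ApoE3 cortex (0.12, SE 0.04). Clvs1, on the list of Sec14l5, had 0.25 (SE 0.06, unadjusted p = 0.000272, adjusted p = 0.273 by edgeR) in ApoE4 cortex. In other lists and comparisons the gene of smallest p was lower under doxorubicin. These included Slc24a1 (-1.45, SE 0.50) and Degs2 (-0.45, SE 0.14) in ApoE3 hippocampus, and Sec14l4 (-0.71, SE 0.26), Slc24a5 (-0.19, SE 0.06) and Sgms1 (-0.14, SE 0.06) in ApoE4 hippocampus. In cortex they were Abi1 (-0.12, SE 0.04) and Efna3 (-0.14, SE 0.07) in ApoE3 rats and Adcy10 (-0.33, SE 0.13) in ApoE4 rats, and none of these passed after adjustment by edgeR.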

How the data were processed

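Total RNA from the hippocampus and cortex of 32 rats was sequenced as 64 libraries, and the reads were aligned with STAR 2.5.2b and analysed with DESeq2, per the submitters' processing notes. The counter, the genome build and the strand setting are not given in the sources used here. The deposited count tables hold whole-number counts per gene. The authors' deposited comparison tables hold log2 fold changes, p-values and, per gene and library, a signal, which is each count scaled by a single factor of its library. Of 32644 count rows, 92 were spike-ins and were left out of totals and tests.

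Counts were tested with edgeR 4.0.16 (R 4.3.3) by the quasi-likelihood F-test with TMM factors, its default filter on low counts and sex as a covariate, within each region and genotype (8 against 8 libraries), with Benjamini-Hochberg adjustment over all genes and a threshold of 0.05. SE is the log2 change divided by the root of F. CPM uses TMM factors over all 64 libraries, and log2 CPM a prior count of 1. DESeq2 1.42.0, other scalings, no filter, no sex term, 1 fit per region, a rat block and leaving out libraries were the alternatives. The script was tested on simulated data. Each replicate is a different rat, and no 2 libraries were duplicates.

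The 10 genes, the marker lists (70 of 74 genes matched) and the family lists (147 of 159 matched) were chosen with earlier results of these data known. A gene counted as chosen in the comparison where it ranked within the top 8 by p among genes with a higher level, and its other comparisons alone were tested. Named besides were the 2 genes of highest r with each of the 10, among genes whose log2 CPM averaged 0 or more, the gene of smallest p of the family lists described, and, for the ranks around the 10, their neighbours in rank. Hippocampus and cortex are paired because the labels give the same animal; the deviations of a rat's 2 libraries had a median r of 0.077 over 32 rats, against -0.024 for 96 pairs of different rats.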

Additional observations from a re-analysis of the deposited data

Results flagged for a closer look

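In 4 of 80 sets of 8 libraries, 1 library stood far from the others of its group by Dixon's criterion, and chance alone gives about 1 in 20. Abl2 in ApoE3 hippocampus was lowest in doxorubicin rat 68 at 28.3 CPM, with the next library at 34.8 CPM and the group median at 37.7 CPM. Camk1g in ApoE3 hippocampus was highest in doxorubicin rat 66 at 35.3 CPM, with the next at 28.0 CPM and the median at 24.4 CPM. Clstn2 in ApoE3 cortex was lowest in doxorubicin rat 72 at 63.1 CPM, with the next at 77.8 CPM and the median at 80.3 CPM. Kalrn in ApoE4 cortex was highest in doxorubicin rat 32 at 651 CPM, with the next at 596 CPM and the median at 581 CPM.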

How the results depend on the processing

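Of the log2 changes of the 10 genes outside the comparisons that chose them, 195 under the other settings kept their direction and their side of the adjusted threshold, and 1 reversed: Camk1g in ApoE3 cortex was -0.0274 without the libraries that stood apart. The number of genes called was 0 by edgeR in each comparison. With DESeq2 it was 160 in ApoE3 hippocampus, 1 in ApoE4 hippocampus, 77 in ApoE3 cortex and 35 in ApoE4 cortex. In ApoE3 cortex it was 8 with library totals only, 7 without a filter and 10 in 1 fit of the region, and in ApoE4 cortex 4 without a filter. DESeq2 called 6 and 1 genes for genotype by treatment in hippocampus and cortex, 123 for region by treatment in ApoE3 rats, and 669 for genotype in hippocampus of PBS rats, against 423 by edgeR. The cause was not tested. Leaving out 1 library gave 0 to 2 genes called and 2 to 6 pairs under an unadjusted p of 0.05 (4 with all libraries). In the comparisons that chose them, where edgeR called none of the 10 genes, DESeq2 called Slc8a2, Sec14l5, Epha7, Kalrn, Adcy1, Abl2, Hmbox1 and Clstn2 (adjusted p 0.000147 to 0.0191), library totals only called Adcy1, Abl2 and Hmbox1 (0.0323 each), no filter called Adcy1 (0.0148), Abl2 (0.0410) and Clstn2 (0.0413), and 1 fit of the region called Abl2 (0.0270). Without a sex term, edgeR's adjusted p was 0.473 for Adcy1, 0.319 for Abl2 and 0.425 for Hmbox1, against 0.0636 each with it. It was 0.141 against 0.170 for the genes chosen in ApoE3 hippocampus. For Camk1g it was 0.693 against 0.641, and for Cers6 and Clstn2 0.342 against 0.273. Of the regional and genotype differences, 3 values passed under another setting and not in the first fit: the regional difference of Slc8a2 in ApoE4 rats with DESeq2 (0.18) and with RLE factors (0.18), and the genotype difference of Adcy1 in hippocampus with DESeq2 (0.29).

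With the rat as a replicate block, 9 genes were called for region by treatment in ApoE3 rats and 0 in ApoE4 rats, and the pairing changed no call of the 10 genes. For hippocampus against cortex it called 7376 genes in ApoE3 and 7179 in ApoE4 rats, against 3634 higher and 3757 lower in ApoE3 and 3680 higher and 3625 lower in ApoE4 rats without the block.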
